A study of Pistia stratiotes with 8 samples.

Results

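In roots of the floating water plant Pistia stratiotes, 194 of 16504 transcript models reached at least 1 CPM (counts scaled per library, as defined next) in every root library while being listed at exactly 0 in every leaf library. These models, called root-restricted below, were chosen by those values: CPM is a library's value divided by its column total and multiplied by 1000000, and the limits were applied to all 4 root and all 4 leaf libraries. Their presence in root and their zeros in leaf are therefore the choice itself and not a result. They made up 1.18% of the models in the table and 1.44% of the 13514 models with at least 1 CPM in every root library. The mirror choice, at least 1 CPM in every leaf library and 0 in every root library, held 54 models.

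The labels name no treatment, genotype or age for either tissue. A mature plant was placed in a 500 ml flask with 200 ml of SH medium for 10 days, and the young plants with 3 to 4 leaves were sampled. A leaf sample pooled the largest emerged leaf of the plants of a flask, and a root sample pooled their roots after the tip and the side roots had been cut off. Each tissue has 4 flasks as biological replicates. Root tips and side roots are thus outside what was measured, and a pool of leaf or root tissue cannot tell fewer cells of a type from less RNA per cell.

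The roots of this plant hang free in the water and take up dissolved nutrients, while the leaves form a rosette above the surface. In plants in general, roots express their own sets of transporters, wall-modifying enzymes and defence genes, and such genes often belong to families whose copies lie next to each other on a chromosome. The table names models by a number only, such as Pis15862.t1, where the suffix is a transcript number. No name, function or sequence was paired with a number in the data used here, so no role is given to any model, and the tissues could not be checked against marker genes.

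Columns of the deposited table summed to between 5458151 (root library 1) and 8749656 (leaf library 1) normalized counts. From the band of lowest values above 0, a read was worth an estimated 0.161 to 0.172 CPM in leaf and 0.167 to 0.171 CPM in root. A read here is a counted unit, which may be a read pair, and a single worth per library is approximate. It puts the total counted over the listed models, not the sequencing depth, at about 5814000 to 6209000 reads. A root library listed 729 to 1005 models at 0 and a leaf library 1336 to 1567. At the limit of 1 CPM a root-restricted model rested on about 6 reads: the lowest library value among them corresponded to an estimated 5.98 reads, and 41 of the 194 models had at least 1 root library under 10 estimated reads. A model listed at 0 in leaf was not detected at this depth, which does not show that it was absent.

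The root-restricted models were mostly scarce transcripts with a short abundant head. Their mean root levels ran from 1.32 to 405 CPM, with a median of 6.15 CPM and quartiles of 3.08 and 21.8 CPM. The median over all models with at least 1 CPM in every root library was 27.9 CPM, and 38 of the 194 lay above it. In the highest class, at 100 CPM or more, stood 13 models. A further 20 had 30 to 100 CPM and 38 had 10 to 30 CPM. The largest numbers were lower down, with 45 models at 5 to 10 CPM and 65 at 2 to 5 CPM, while 13 had less than 2 CPM.

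**Figure D1:**
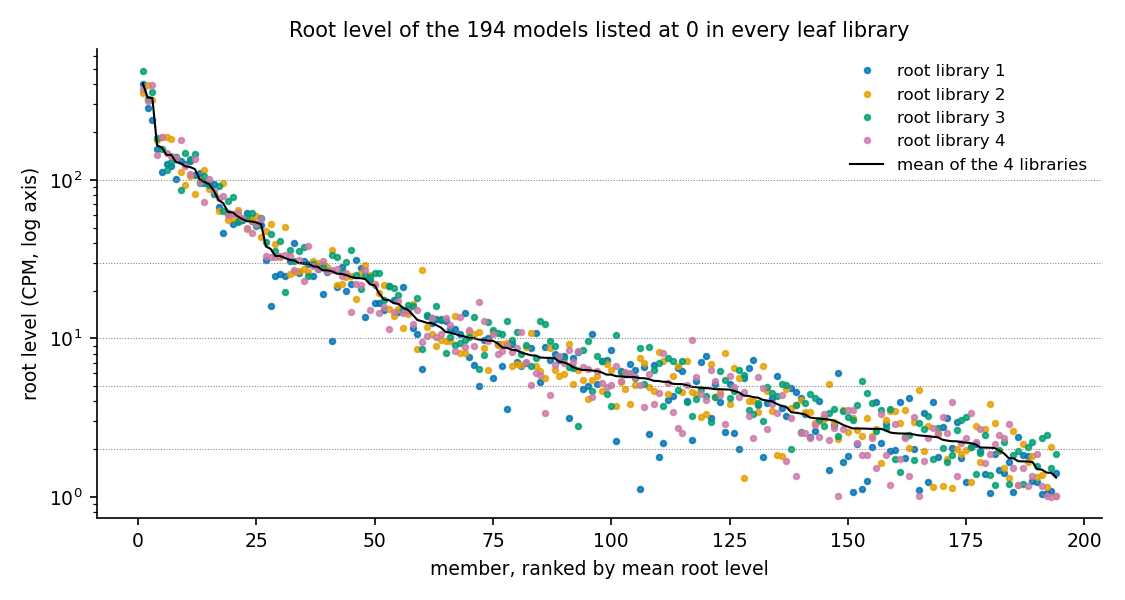
Level of each root-restricted model in the 4 root libraries (points, CPM, log axis) and their mean (line), with models ordered by mean level and dotted lines at the class limits of 2, 5, 10, 30 and 100 CPM. The line drops from 405 CPM to 1.32 CPM, and the first 3 models stand above the rest.

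A few models carried most of this transcript pool. All 194 together took 0.437% of root library 1, 0.485% of root library 2, 0.506% of root library 3 and 0.478% of root library 4, a mean of 0.476% ± 0.029 (SD, n = 4). The 13 models of the highest class held 50.2% of the summed level, and the 3 most abundant held 22.3%. The 65 models at 2 to 5 CPM held 4.37%, so the most populated class weighed little in the pool.

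The most abundant root-restricted model was Pis15862.t1. It had 401 CPM in root library 1, 355 in library 2, 489 in library 3 and 375 in library 4, a mean of 405 ± 59.0 CPM (SD, n = 4). In these libraries it ranked between place 237 and place 396 of all 16504 models. Pis01208.t1 had 284, 398, 325 and 314 CPM in root libraries 1 to 4, a mean of 330 ± 48.3 CPM. Pis17322.t1 had 240, 320, 358 and 397 CPM in the same order, a mean of 329 ± 67.2 CPM. The replicate ranges of the 3 models overlapped, and each led the group in at least 1 library: Pis15862.t1 in libraries 1 and 3, Pis01208.t1 in library 2 and Pis17322.t1 in library 4. Their order by mean is therefore not fixed beyond the spread of the replicates.

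After these 3 the levels dropped to less than 170 CPM, with a gap that no replicate bridged. Pis12365.t1 followed with 156, 179, 183 and 143 CPM in root libraries 1 to 4, a mean of 165 ± 18.6 CPM, and its highest library lay below the lowest library of each of the 3 leaders. Pis01727.t1 (160 ± 34.5 CPM), Pis01215.t1 (144 ± 31.1), Pis07430.t1 (144 ± 25.8) and Pis18008.t1 (129 ± 19.2) came next (mean ± SD, n = 4). The remaining members of the class were Pis10837.t1 (127 ± 39.3), Pis06665.t1 (122 ± 22.6), Pis16364.t1 (120 ± 15.2), Pis04464.t1 (117 ± 28.7) and Pis00647.t1 (101 ± 7.26). From Pis12365.t1 to Pis00647.t1 each model overlapped its neighbour in this order over the replicates. Pis10837.t1 was the least even of the 13, from 86.3 CPM in root library 3 to 179 CPM in root library 4. Pis00647.t1 was the most even, from 95.3 CPM in library 3 to 111 CPM in library 1.

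A listing at 0 in every leaf library was more frequent among scarce root models, but not limited to them. Of the 227 models with a mean of 1 to 2 CPM and at least 1 CPM in every root library, 5.73% were listed at 0 throughout leaf. The share was 4.53% at 2 to 5 CPM, 2.73% at 5 to 10 CPM and 1.02% at 10 to 30 CPM. It reached 0.474% at 30 to 100 CPM and 0.572% (13 of 2273) at 100 CPM or more. A scarce model falls to 0 in leaf with a smaller difference between the tissues than an abundant one, and the part of this in the lower classes was not tested. The 13 members at 100 CPM or more had at least 487 estimated reads in every root library, while every leaf library listed 0.

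The zero in every leaf library set a border that single reads can cross. Of the 13514 models with at least 1 CPM in every root library, 194 were above 0 in 0 leaf libraries, 164 in 1, 186 in 2, 259 in 3 and 12711 in 4. Among the 164 models kept out by a single leaf library, the value in that library was under 0.25 CPM for 109, about the worth of 1 read. The most abundant of them, Pis06015.t1, had 176, 188, 263 and 244 CPM in root libraries 1 to 4 and 0.672 CPM in leaf library 1, with 0 in the other leaf libraries. Its mean root level of 218 CPM lies between those of Pis17322.t1 and Pis12365.t1. At the other border, Pis15676.t1 was just inside with a lowest root value of 1.00 CPM (1.08, 2.05, 1.52 and 1.00 CPM in libraries 1 to 4). Pis18227.t1 was just outside with 2.71, 0.986, 2.73 and 1.51 CPM. A lowest root value between 1 and 2 CPM was found in 55 members, and 41 models listed at 0 in leaf had one between 0.5 and 1 CPM.

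**Figure D2:**
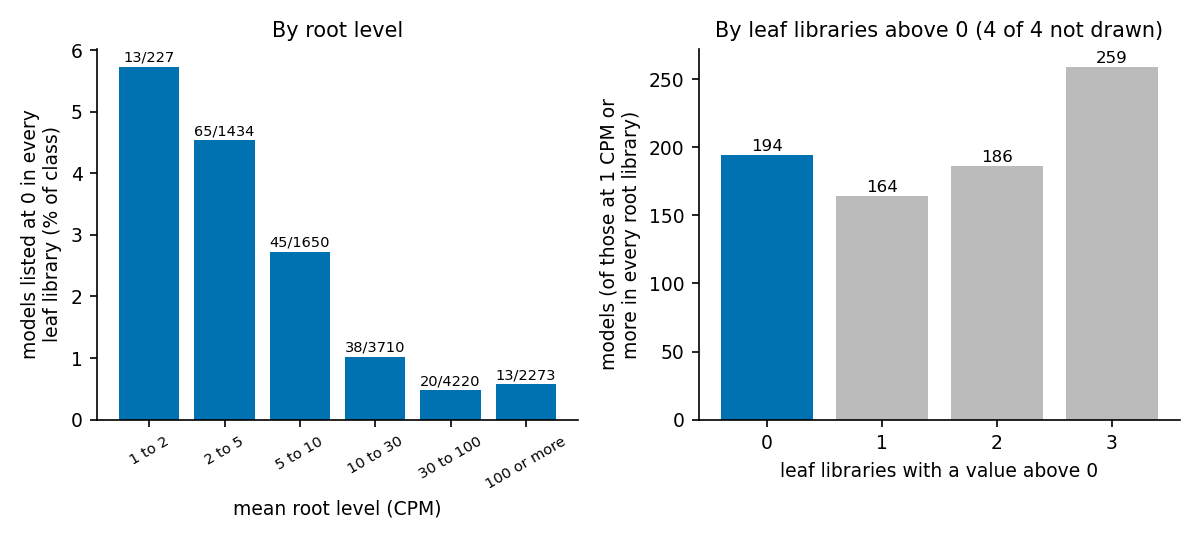
Left, percentage of the models with at least 1 CPM in every root library that were listed at 0 in every leaf library, by mean root level in CPM (numbers above the bars are models listed at 0 and models in the class). Right, number of models with at least 1 CPM in every root library by how many leaf libraries showed a value above 0. The share falls from 5.73% in the lowest class to 0.572% in the highest, and the 194 models at 0 throughout stand beside 164 with a value in 1 leaf library.

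A library left out of the choice gave a value that the choice had not used. When the models were chosen on 3 leaf libraries and all root libraries, between 219 and 251 were found, and the leaf library held out listed 77.3% to 88.6% of them at 0. Leaf library 2 contradicted the choice most often, for 57 of 251 models, and leaf library 3 least often, for 25 of 219. The values that contradicted it were small, with medians of 0.165 to 0.172 CPM and a highest value of 1.77 CPM. When a root library was held out instead, 93.3% to 98.0% of the 198 to 208 models chosen on the other libraries reached 1 CPM in it. The models that failed there had median root levels of 1.28 to 1.81 CPM over the 4 libraries, and 1 model each was at 0 in root library 1 and in root library 3. These shares are not a contrast of the tissues, because the demands are unlike. The chosen models had median levels of 5.91 to 6.53 CPM in the held-out root library, well above 1 CPM. A single read, worth 0.161 to 0.172 CPM in leaf, was enough to break a 0. Of all 16504 models, a leaf library listed 1336 to 1567 at 0.

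Root replicates differed more over the root-restricted models than over other root models. The median coefficient of variation (CV, the SD over the mean of the 4 root libraries) was 25.4% with quartiles of 17.3% and 36.9%. The other models with at least 1 CPM in every root library had a median of 16.3%. From the class at 30 to 100 CPM down to that at 2 to 5 CPM the median CV rose in both groups. Within classes of like level the gap between the groups was smaller. At 1 to 2 CPM the medians fell back to 30.5% for the root-restricted and 29.0% for the other models. There the demand of 1 CPM in every root library limits the spread around a mean under 2 CPM. At 2 to 5 CPM the medians were 34.7% for the root-restricted and 31.1% for the other models, at 10 to 30 CPM 20.3% and 17.3%, and at 30 to 100 CPM 15.2% and 12.9%. In the highest class they were 18.0% and 12.6%. The members had the larger median CV in each of the 6 classes. As an SD of log2(CPM + 1), their median was the smaller one in the class at 1 to 2 CPM, at 0.243 against 0.257. No test was made of these differences.

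**Figure D3:**
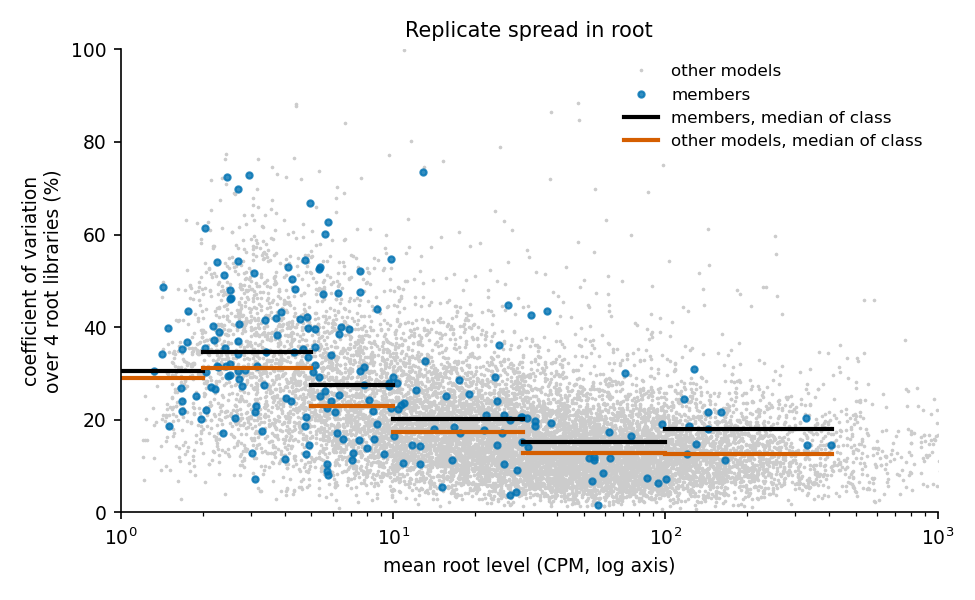
Coefficient of variation over the 4 root libraries (%) against mean root level (CPM, log axis) for the root-restricted models (blue) and the other models with at least 1 CPM in every root library (grey), with the median of each level class as bars; models above 1000 CPM or 100% are not drawn, and the last bars end near the highest member although their class is open. The black bars, 34.7% at 2 to 5 CPM and 18.0% at 100 CPM or more, lie a little above the orange ones at 31.1% and 12.6%.

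Single root-restricted models ranged from nearly constant to several-fold variable. Among those with at least 10 CPM, Pis15113.t1 was the most even, with 55.8, 56.5, 55.9 and 57.8 CPM in root libraries 1 to 4, a CV of 1.57%. Pis03735.t1 was the least even, with 6.39, 26.8, 8.58 and 9.46 CPM, a CV of 73.5% that came from root library 2 alone. The highest library exceeded the lowest at least 2-fold in 78 of the 194 models, of which 41 lay at 2 to 5 CPM and 1 at 100 CPM or more. It was less than 1.5-fold higher in 51 models. The same counts are not given for the other root models, so they are not read as a trait of the members. At 2 to 5 CPM the median CV was 34.7% for the members and 31.1% for the other models.

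The root libraries did not contribute evenly to this variation. Root library 3 was the highest of the 4 for 75 members (38.7%) and root library 1 the lowest for 71 (36.6%). Over all 13514 models with at least 1 CPM in every root library, library 3 was the highest for 24.7% and library 1 the lowest for 28.8%, while library 1 was also the highest for 34.3%. Between pairs of root libraries, the rank correlation over the 194 members was 0.871 to 0.890 for the pairs with root library 1 and 0.919 to 0.922 for the others. These are descriptions across models of shared libraries. A difference of more than 2-fold separated 14.4% to 19.1% of members in the pairs with root library 1, and 10.8% to 11.9% in the other pairs. Over the other models the shares were 4.98% to 6.01% and 3.33% to 3.90%, and the rank correlations 0.972 to 0.976 and 0.980 to 0.984. In both sets the pairs with root library 1 differed more. Levels were not matched here, although spread depended on level. The median was 6.15 CPM for the members and 27.9 CPM for all models with at least 1 CPM in every root library.

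All members were higher in root by choice, and the test across the whole table adds nothing to that. The 13688 models that reached 10 normalized counts in 4 libraries or more were compared between root and leaf with limma on log2(normalized count + 1). Of the 194 members 143 passed this minimum, which they could do through root alone, and all 143 were called higher in root (Benjamini-Hochberg adjusted p under 0.05), where 27.2% of all tested models were called in that direction and 51.6% in either direction. The 51 others had at least 1 root library under 10 normalized counts and were not tested. No fold change is given against a tissue listed at 0.

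The numbers of the models gave a property that the choice did not use. The id numbers run from 1 to 20355, and 3851 of them have no row in the table. What the numbering follows is not given in the sources used here, so adjacent numbers are not called adjacent genes. The members were spread over the whole range, with 3 to 18 in each full block of 1000 numbers and a median step of 66 between members. The longest stretch without a member ran from 11237 to 11820. A first transcript (.t1) stood for 187 members, and a later one for 7 (3.61%), compared with 11.7% of all models with at least 1 CPM in every root library.

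Within that spread, some members stood side by side. Of the 194, 25 (12.9%) had a number next to another member's, in 3 runs of 3 and 8 pairs. Among the 13320 other models with at least 1 CPM in every root library, 217 (1.63%) stood next to a member. Among the 164 models kept out by 1 leaf library it was 8 (4.88%). Another member lay within 10 numbers of 63 members (32.5%), and a member lay within 10 numbers of 15.6% of the other root models. These shares describe the numbering, and no test was made of them.

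Models next to a member but not among them leaned to root as well. Such neighbours numbered 280, of which 221 were tested between root and leaf. Higher in root were 96 (43.4%), against 27.2% of all tested models, and higher in leaf were 36 (16.3%), against 24.4% of all tested models (limma, adjusted p under 0.05). All tested models include the members. Without the members the shares were 26.5% higher in root and 24.6% higher in leaf. The neighbours' median root minus leaf difference was 0.30 on the log2 scale, and that of all tested models was 0.05. A difference of at least 3 on the log2 scale was reached by 39 neighbours (17.6%). It was reached by 6.90% of all tested models, and by 5.91% of those that are not members. On the CPM scale the median difference over the whole table was 0.49 in place of 0.05, and the shares higher in root were 63.3% of the neighbours and 48.8% of all tested models, and higher in leaf 10.9% and 13.7%.

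The lean to root faded within a few numbers. At a distance of 2 from the nearest member, 30.4% of the tested models were called higher in root and 23.2% higher in leaf. At a distance of 3 the shares were 25.3% and 26.2%, and beyond that they stayed between 23.9% and 27.6% for root. The share with a difference of at least 3 on the log2 scale went from 17.6% at a distance of 1 to 8.48% at 2 and 6.33% at 3. These models share the libraries with the members, and no test was made over distance.

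**Figure D4:**
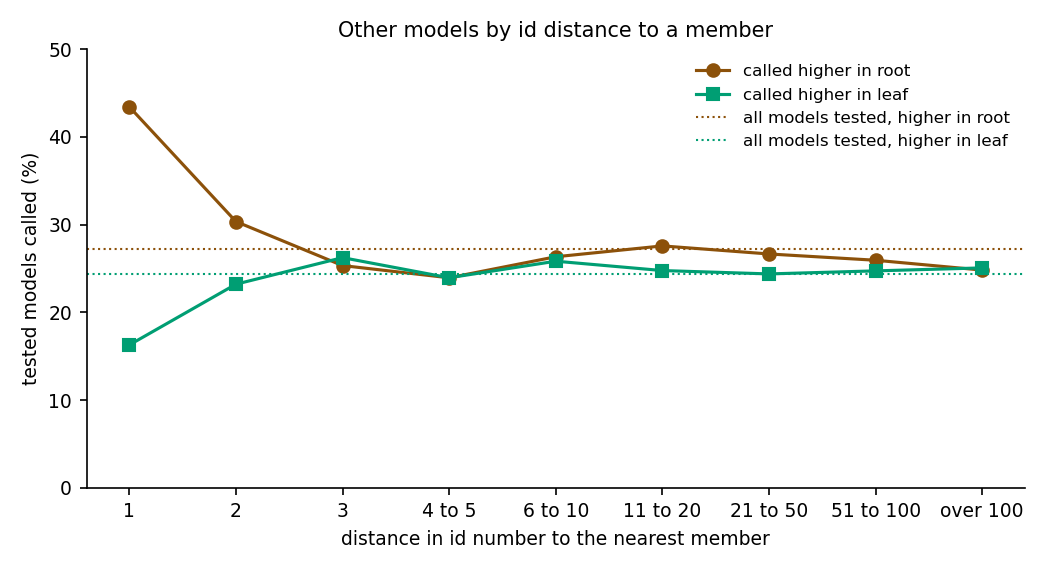
Percentage of tested models that are not members called higher in root (brown) or higher in leaf (green) by limma, by distance in id number to the nearest root-restricted model; dotted lines give the shares over all tested models, 27.2% and 24.4%. At a distance of 1 the shares are 43.4% and 16.3%, and from a distance of 3 on they lie close to each other.

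Id neighbours of the most abundant members were mostly higher in root too. The 13 models of the highest class have 18 neighbours with a row in the table, and 8 adjoining numbers have none. Of the 18, 1 was itself a member. Of the 17 others 15 were tested, of which 11 (73.3%) were called higher in root and 1 higher in leaf, where the share called higher in root was 43.4% of all tested neighbours and 27.2% of all tested models. Beside Pis15862.t1 stood the member Pis15861.t1, with 17.5, 13.9, 20.7 and 14.7 CPM in root libraries 1 to 4. Both had their highest value in library 3 and their lowest in library 2, while their mean root levels differed 24.3-fold. Pis10838.t1, beside Pis10837.t1, had 57.0, 73.0, 63.4 and 52.2 CPM in root and 0 to 0.826 CPM in leaf (limma, log2 difference 6.92 with a standard error of 0.51, adjusted p = 1.55e-06). The model that was higher in leaf was Pis00646.t1, beside Pis00647.t1, with 242 ± 32.3 CPM in leaf and 109 ± 17.8 CPM in root (SD, n = 4 each; limma, log2 difference of root minus leaf -1.63 with a standard error of 0.16, adjusted p = 1.47e-05). The limma differences here are of log2(normalized count + 1), not of the CPM values beside them. Over all tested models the median root minus leaf difference was 0.05 on that scale and 0.49 on the CPM scale.

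To describe longer groups of neighbours, consecutive rows of the table were joined into a stretch. In each row the mean root level in CPM was at least 4 times the mean leaf level in CPM. No other scale was tried for this limit, although models lie higher in root against leaf in CPM than in normalized counts. This definition was set after the values had been seen, and a lean to root inside a stretch is part of it. The 194 members fell into 166 stretches. In 75 of them the member was the whole stretch, 13 stretches held 2 members, and 5 held at least 3. These 5 held 20 members, and of the 174 members outside them 12 (6.90%) had a number next to another member's. They ran from id 1208 to 1220, 8009 to 8026, 8731 to 8735, 9667 to 9676 and 13270 to 13275.

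The longest stretch, also the longest of all 2040 in the table, ran from id 8009 to 8026. It held 18 models, of which 8 were members, and 10 were listed at 0 in every leaf library. Pis08009.t1 had 21.5, 15.3, 21.5 and 11.4 CPM in root libraries 1 to 4. Pis08010.t1 was far lower, with 1.07, 2.59, 1.83 and 1.51 CPM. Pis08011.t1 had 52.8, 57.3, 77.6 and 61.1 CPM, so levels within this run of 3 differed far more than the replicates of any of them. The next number, Pis08012.t1, had 67.3 to 79.5 CPM in root and was kept out of the group by 0.154 CPM in leaf library 2.

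A second run of 3 followed directly. Pis08013.t1 had 25.4, 32.5, 41.3 and 33.0 CPM in root libraries 1 to 4, and Pis08014.t1 had 21.0, 21.6, 32.4 and 27.2 CPM. Pis08015.t1 had 31.4, 17.7, 24.9 and 21.9 CPM. The first and second had their highest value in library 3 and their lowest in library 1, whereas the third was highest in library 1. The most abundant model of the stretch was no member: Pis08021.t1 had 124, 133, 85.5 and 160 CPM in root, with 0.158 and 0.168 CPM in leaf libraries 2 and 4. The rows beyond the edges fall short of the limit by definition. Pis08008.t1 had 31.6 ± 4.12 CPM in leaf and 28.5 ± 2.39 in root, and Pis08027.t1 had 17.0 ± 1.74 in leaf and 29.8 ± 7.22 in root (SD, n = 4).

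Summed over the stretch, root held 425, 424, 418 and 483 CPM in libraries 1 to 4, and leaf held 0.985, 3.75, 1.30 and 1.57 CPM. No root library was the peak for most of its models. Of the 14 with at least 1 CPM in every root library, 4 were highest in library 1, 2 in library 2, 3 in library 3 and 5 in library 4.

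The stretch from id 1208 to 1220 held 2 of the 13 most abundant members. The table has 11 models there, of which 3 were members: Pis01208.t1, Pis01215.t1 and Pis01219.t1. The last had 46.1, 96.1, 63.4 and 78.5 CPM in root libraries 1 to 4. Of the 8 other models, 5 had at least 1 CPM in every root library and a value above 0 in at least 1 leaf library. The remaining 3 had mean root levels of 0.469 to 1.29 CPM and were listed at 0 in every leaf library. Pis01218.t1 had 558, 1009, 477 and 999 CPM in root and 1.17, 6.76, 1.32 and 9.27 CPM in leaf. Pis01209.t1 had 148, 275, 235 and 178 CPM in root and 0 to 1.21 CPM in leaf.

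Unlike those of the stretch from 8009, these models had their highest value in 1 and the same root library. All 8 with at least 1 CPM in every root library were highest in root library 2, where 22.4% of all such models of the table had their highest value. Of the 8, 4 were lowest in library 1, 2 in library 3 and 2 in library 4. The sum over the stretch was 1194 CPM in library 1, 2046 in library 2, 1264 in library 3 and 1752 in library 4. The count by library was made after the values had been seen.

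**Figure D5:**
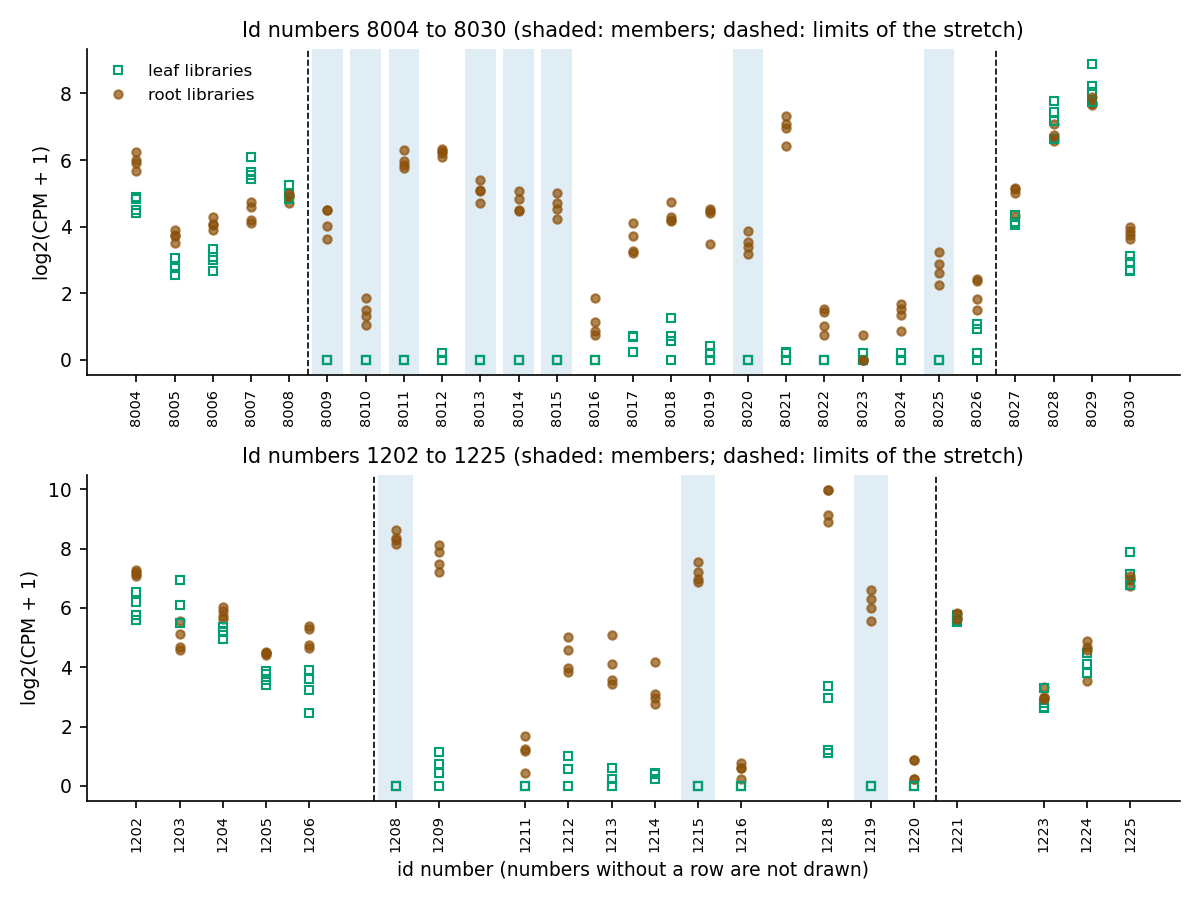
Level as log2(CPM + 1) of each model by id number, in the 4 leaf libraries (green squares) and the 4 root libraries (brown circles), for the stretches 8009 to 8026 (top) and 1208 to 1220 (bottom) with the 5 rows before and the rows after them; blue shading marks root-restricted models and dashed lines the limits. Inside the limits most leaf values lie at or near 0, with Pis01218.t1 reaching 9.27 CPM, and outside them leaf values are well above 0.

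The run of 3 in the stretch from 13270 was Pis13273.t1, Pis13274.t1 and Pis13275.t1. The first had 9.66, 36.0, 33.3 and 26.9 CPM in root libraries 1 to 4, the second 16.1, 52.5, 45.3 and 32.8 CPM, and the third 1.99, 5.62, 6.32 and 4.29 CPM. All 3 were lowest in root library 1, as was Pis13270.t1, the other model of the stretch, with 18.0 CPM there and 27.9 to 35.1 in the others. The first and second were, after Pis03735.t1, the least even members with at least 10 CPM, with CVs of 44.7% and 43.5%. The next number, Pis13276.t1, was also lowest in root library 1, with 1.73 CPM against 5.02 to 6.05 in the others, but had 5.22 to 7.18 CPM in leaf. The number after it, Pis13277.t1, was instead highest in root library 1 at 9.76 CPM and lowest in library 4 at 2.90 CPM. Root library 1 was the lowest for 36.6% of members and for 28.8% of all models with at least 1 CPM in every root library. Models in such runs may be near copies whose reads were divided between them when counted. Their sequences were not used here, so this was not tested, and single levels within a run are uncertain to that extent.

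The stretch from 8731 was a scarce one, with members at 2.77 to 5.90 CPM. Its flanking rows had the opposite pattern at a low level: Pis08730.t1 had 0.516 to 1.46 CPM in leaf and 0 in every root library, and Pis08736.t1 had 0.336 to 0.602 CPM in leaf and 0.169 CPM in 1 root library. The stretch from 9667 held Pis09667.t1, Pis09671.t1 and Pis09672.t1, with mean root levels of 8.12, 32.1 and 5.53 CPM, and 5 models that were no members. Among these, Pis09669.t1 had 29.5 to 38.5 CPM in root and was kept out by 0.168 CPM in leaf library 3.

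Outside the runs of 3, members with adjoining numbers were pairs. In 1 of the 8, Pis15861.t1 and Pis15862.t1, both members reached 10 CPM. The largest contrast within the other pairs was at 15498 and 15499, with mean root levels of 52.3 and 2.50 CPM. The pair at 17420 and 17421 was nearly equal at 9.79 and 8.40 CPM. Both of these pairs were picked after their values had been seen.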

How the data were processed

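Poly(A) RNA of 4 leaf and 4 root samples was sequenced as 150 bp pairs, per the labels' protocols. The deposited table holds normalized counts (a signal already scaled between libraries by the authors). Salmon and DESeq2 are named in the submitters' processing notes without role or version. Settings, genome build and the transcripts counted were not given in the sources used here. Of the values above 0, 0.000814% were whole (within 1e-06), and column medians of the ratio to the geometric mean were 0.998 to 1.02, so no count model was used. No column was left unused.

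Leaf columns are numbered 1 to 4 but leaf labels 1, 3, 4 and 5, so leaf columns were assigned to the tissue only; library numbers are the table's. Members were chosen by the limits above. Root and leaf were compared over the whole table with limma 3.58.1 (R 4.3.3; trended variance, pseudocount 1, Benjamini-Hochberg), tested on simulated data; other values used Python 3.11.15, numpy 2.4.6 and pandas 2.3.3. A log2(value + 1) difference understates the change of scarce models. Intervals are not given because read counts are only estimated. Named models are members with a mean of at least 100 CPM, the longest runs of neighbouring ids, pairs with both at 10 CPM, the extremes of spread and the models at the limits; other models named were picked after their values were seen. The members and rules were chosen with earlier results of these data known.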

Additional observations from a re-analysis of the deposited data

Results flagged for a closer look

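A root library stood apart from the other 3 for 2 of the 26 root-restricted models examined by Dixon's test. Pis18008.t1 had 101 CPM in root library 1 and 138 to 140 CPM in the others, so that 0.943 of the range lay between it and the next library, more than the test allows 4 samples at the 95% level. Pis03735.t1 had 26.8 CPM in root library 2 and 6.39 to 9.46 CPM in the others, a gap of 0.850 of the range. Chance gives such a gap in about 1 of 20 groups that were not picked for their spread. Pis03735.t1 was picked for the largest CV among members with at least 10 CPM, so this rate does not apply to it. Over all 194 members 7 (3.61%) had such a gap, against 5.58% of all models with at least 1 CPM in every root library.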

How the results depend on the processing

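The count of 194 root-restricted models is set by its limits. It was 90 with a root minimum of 5 CPM, 566 with a leaf limit of under 0.5 CPM and 358 with 1 leaf library allowed above 0, and 198 to 251 with single libraries left out. In the same order of settings the members' share of a root library was 0.438%, 1.11% and 0.784%, and 0.468% to 0.621%. Their median level was 24.2, 6.76 and 7.08 CPM, and 5.67 to 7.48 CPM; with a root minimum of 0.5 or 2 CPM it was 4.92 or 10.0 CPM. The median spread over root libraries was 0.307 as an SD of log2(CPM + 1) and 0.255 to 0.301 with single root libraries left out. It was 0.254 as a ratio of SD to mean, 0.362 with 0.1 added and 0.355 on the deposited scale, and the other root models had the lower median in each case. Members next to another member numbered 25, and 25 to 32 with single libraries left out. They numbered 12 of 174 without the 5 stretches of at least 3 members, an alternative chosen after seeing the data. There were 45 within 5 numbers, and 96 of 566 under the leaf limit of 0.5 CPM. Neighbours called higher in root numbered 96 of 221 tested (43.4%), against 27.2% of all tested models. With single libraries left out they numbered 89 to 98 (39.9% to 44.1%), against 23.8% to 29.0% of all tested models. They were 164 of 445 (36.9%) within 2 numbers and 328 of 1117 (29.4%) within 5, the latter near the 27.2% of all tested models. Without the 5 stretches they were 88 of 213 (41.3%). Of 90 checks 63 stayed within the limits for a like value and 27 moved. The 63 include the calls of members as higher in root, whose outcome the choice had fixed. Some of the 27 used another unit or a wider distance in id number, so the tally does not measure how firm the results are. With column number as a replicate block, all 143 tested members were called higher in root, as the choice had fixed. So were 92 of 221 tested neighbours (41.6%), against 25.4% of all tested models. Whether samples were paired is unknown, since equal numbers need not mark a flask; same-numbered libraries deviated with correlations of -0.02 to 0.03. Depth limits the zeros: a model under about 1 read in leaf is listed at 0.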

Other observations

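Of the models in the table, 644 were listed at 0 in every leaf library, and 79 of them also in every root library. Besides the 194 members, 33 of the 644 reached 1 CPM in 3 root libraries, 36 in 2, 63 in 1 and 318 in none. The blocks of 1000 id numbers richest in members were those from 15000 (17 of 798 models, 2.13%), 8000 (17 of 808, 2.10%) and 10000 (18 of 869, 2.07%), and the poorest full block was that from 4000 (3 of 871, 0.344%). The most abundant model found next to a member was Pis06921.t1, with 3010, 2613, 3315 and 3164 CPM in root libraries 1 to 4 and 8.28 to 15.2 CPM in leaf (limma on normalized counts, not CPM, log2 difference 7.52, adjusted p = 2.23e-09). It was picked after its values had been seen. Its neighbour among the members was Pis06922.t1.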
